A study of Mus musculus with 8 samples.

Results

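The Slc15 genes encode carriers of short peptides and of histidine, and 3 of them, Slc15a2, Slc15a3 and Slc15a4, are described here across germinal center and activated B cells of mice with and without a B cell knockout of Jmjd1c. They were picked by symbol from 55401 gene identifiers per library, and they were chosen because Slc15a2 was close to 0 in wild-type activated B cells while its paralogs were not. The Slc15a2 levels are therefore given as a description with no test, whereas Slc15a3 and Slc15a4 were tested. The family has 5 genes in the files. Its other members, Slc15a1 and Slc15a5, had 1 count and 0 counts over all 8 libraries, where 3 counts were taken as the floor of a group.

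RNA of 8 libraries in 4 groups of 2 was sequenced, all from the spleen of C57BL/6 mice. The groups were Jmjd1c B KO germinal center B cells, wild type (WT) germinal center B cells, Jmjd1c B KO activated B cells and WT activated B cells. Germinal center cells were sorted by FACS, and activated B cells were enriched with pan-B biotin and streptavidin beads before activation. Jmjd1c encodes a protein of the Jumonji family of histone demethylases. The activating agent, the Cre line, the exons removed, the age of the mice and whether the 2 libraries of a group came from separate mice go unstated in the labels, so p-values measure the spread between these libraries, which may be technical.

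SLC15 carriers move substrate together with protons. SLC15A2, also called PEPT2, takes up di- and tripeptides and peptide-like drugs at the plasma membrane and is best known from the kidney, where it recovers filtered peptides. SLC15A3 (PHT2) and SLC15A4 (PHT1) sit in endosomes and lysosomes, carry histidine as well as peptides, and are found in immune cells. In human cells SLC15A4 binds the adaptor TASL, which recruits the transcription factor IRF5 downstream of the endosomal Toll-like receptors TLR7, TLR8 and TLR9, and both endolysosomal carriers have been linked to the passage of bacterial muropeptides to NOD1 and NOD2 in the cytosol.

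Proteins translated from the annotated coding sequences had 740 residues for Slc15a2, 578 for Slc15a3 and 574 for Slc15a4. Slc15a3 and Slc15a4 were identical at 53.2% of 545 aligned residues, whereas Slc15a2 was identical to Slc15a3 at 27.8% of 514 and to Slc15a4 at 28.6% of 496. Peptide carriers of this kind share a motif written ExxER in the first membrane helix, which takes part in proton coupling. The coding strand around it is given for the 3 genes because it lets the paralogs be told apart by eye, with the 15 bases of the motif or of the codons aligned to it in capitals (GRCm38, from the GENCODE M21 annotation).
Slc15a2, chr16:36782279-36782323, minus strand, motif from residue 64: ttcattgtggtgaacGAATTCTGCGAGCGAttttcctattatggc
Slc15a3, chr19:10843129-10843173, plus strand, aligned from residue 42: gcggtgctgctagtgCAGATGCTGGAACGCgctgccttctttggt
Slc15a4, chr5:127617232-127617276, minus strand, motif from residue 37: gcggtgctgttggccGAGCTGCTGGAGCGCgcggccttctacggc
The motif was found in Slc15a2 and Slc15a4, and in Slc15a3 only its last residue pair was in place. The acidic dileucine form that directs many proteins to lysosomes is an acidic residue, any 3 residues, a leucine and a leucine or isoleucine. It was found 0 times in Slc15a2, 2 times in Slc15a3, the first from residue 284, and 1 time in Slc15a4 from residue 4. How often these letters occur in other proteins, and whether the matches face the cytosol, was not examined. The longest run of identical bases between transcripts was 11 bases for Slc15a2 and Slc15a3, 12 for Slc15a2 and Slc15a4 and 19 for Slc15a3 and Slc15a4.

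Libraries held 8777425 to 11414559 counts on genes. Levels are given as CPM, in which counts are put on a common library size, here after TMM scaling over the 8 libraries, and values with ± are means and SDs over n = 2 libraries. Jmjd1c itself had 164 and 158 CPM in KO and 194 and 181 CPM in WT germinal center B cells. It had 134 and 151 CPM in KO and 273 and 281 CPM in WT activated B cells. Every KO library thus lay below every WT library of its cell type, but by unlike steps. The log2 fold change was -0.20 in germinal center (edgeR adjusted p = 1.66e-05) and -0.94 in activated B cells (1.81e-11). These effects differed by 0.74 (edgeR adjusted p = 1.39e-14). The 7 B cell markers summed to 7126 to 10150 CPM per library. In activated B cells the 8 germinal center markers summed to 149 and 157 CPM in KO and to 161 and 163 CPM in WT. By edgeR 4 of these 8 were lower with KO there and 0 higher, with a median log2 fold change of -0.80. Of all tested genes 1.42% were called lower in that comparison. In germinal center B cells these 8 markers summed to 1654 and 1635 CPM in KO and to 3121 and 3152 CPM in WT, and all 8 were lower with KO by edgeR, with a median log2 fold change of -0.80.

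Slc15a2 stood at 86.6 to 135 CPM in 3 of the 4 groups and close to 0 in the other. It had 719 and 728 counts in KO germinal center B cells, or 87.9 and 86.6 CPM, and 1282 and 1437 counts in WT germinal center B cells, or 135 and 133 CPM. Both KO libraries lay below both WT libraries there, as they did for the germinal center marker sum, whose part in the Slc15a2 difference was not tested. In KO activated B cells it had 1005 and 1053 counts, or 102 and 105 CPM, against 7 and 5 counts, or 0.720 and 0.493 CPM, in WT activated B cells. The gene was chosen for this gap between the activated groups, which is therefore a description.

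**Figure D1:**
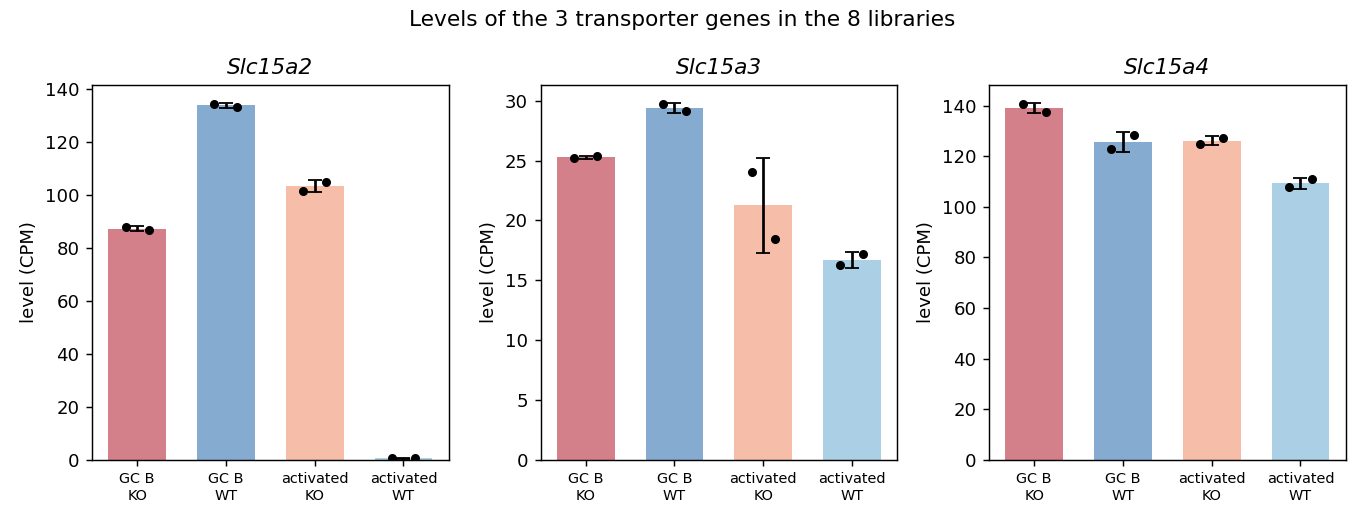
Level in CPM (y axis, linear from 0) of each transporter gene in the 4 groups, with points for single libraries, bars for the mean and error bars for the SD over 2 libraries (GC, germinal center). Slc15a2 stands at 86.6 to 135 CPM in 6 libraries and below 1 CPM in the 2 WT activated B cell libraries, while Slc15a3 and Slc15a4 are present in all 8.

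In group means, Slc15a2 reached 87.3 ± 0.924 CPM in KO germinal center, 134 ± 0.972 CPM in WT germinal center, 103 ± 2.32 CPM in KO activated and 0.606 ± 0.160 CPM in WT activated B cells. From highest to lowest the order was WT germinal center, KO activated, KO germinal center and WT activated. The 12 counts of WT activated B cells allow 0.313 to 1.06 CPM (exact Poisson 95% interval, counting error only). KO activated B cells were 170 times as high as WT activated B cells, with a counting interval of 97.3 to 330. WT germinal center B cells were 221 times as high as WT activated B cells, with an interval of 126 to 428. In germinal center B cells the KO over WT ratio was 0.652, and between KO germinal center and KO activated B cells the ratio was 0.845.

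Slc15a2 was the 1 gene of 55401 that stayed under 1 CPM in both WT activated libraries and reached at least 5 CPM in each of the other 6. It was chosen for this pattern, so its own place here and among the genes at least 8 times higher is a description. The same rule applied to the other groups returned 0 genes for KO germinal center, 14 for WT germinal center and 0 for KO activated B cells. In activated B cells, 3 genes were at least 8 times higher in every KO library than in every WT library with more than 2 CPM in KO, namely Slc15a2 and the predicted genes Gm4779 and Gm5960. Gm4779 averaged 3.05 CPM in KO and was listed at 0 in WT activated B cells, and Gm5960 averaged 2.90 CPM in KO and 0.161 CPM in WT, so Slc15a2 was the 1 gene of the 3 above 5 CPM. In the other direction 2 genes met the rule, Gm16867 and the antibody segment Ighv1-31. In germinal center B cells 45 genes met it in KO over WT and 1, Emp2, in WT over KO. These genes were named after their values were seen.

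**Figure D2:**
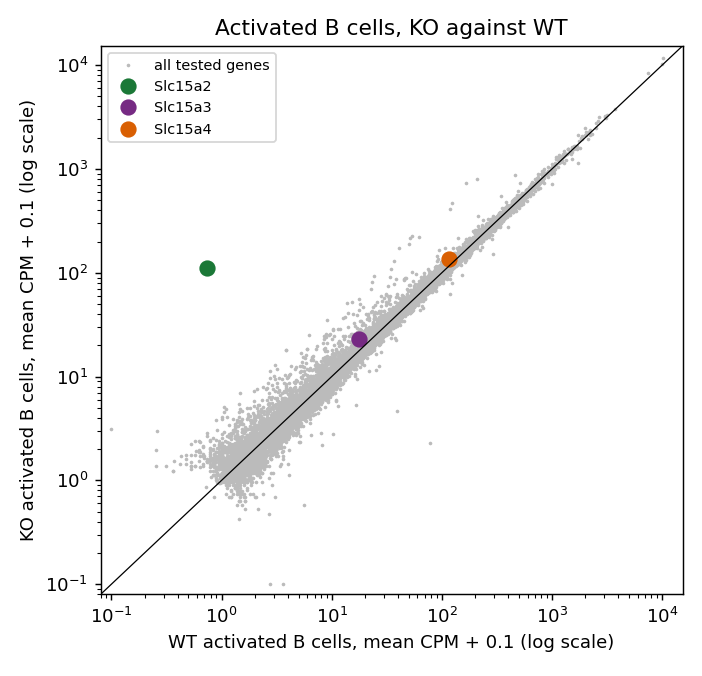
Mean level of each tested gene in KO (y axis) and WT (x axis) activated B cells, both as CPM + 0.1 on log scales, with the line of equal levels. Slc15a2 lies far above the line, while Slc15a3 and Slc15a4 lie close to it, at log2 fold changes of 0.36 and 0.22.

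Sums of neutrophil, of monocyte and macrophage, and of erythroid markers were higher with KO in both cell types. In activated B cells edgeR called 9 of 9, 6 of 12 and 6 of 8 tested markers of these lists higher. Of all tested genes 4.85% were called higher there. It called 0 of 5 conventional dendritic, 0 of 6 plasmacytoid dendritic, 0 of 7 T cell and 0 of 2 NK cell markers. The 9 neutrophil markers summed to 2235 and 1833 CPM in KO and to 583 and 511 CPM in WT activated B cells, and none was at 0. They summed to a mean of 2.66 CPM in KO germinal center and 0.581 CPM in WT germinal center B cells, where Slc15a2 had 87.3 and 134 CPM. None of these markers passed the filter for the KO test in germinal center B cells. In WT germinal center B cells S100a8, S100a9, Ly6g, Ltf, Ngp, Mpo and Elane were all at 0. The 16 monocyte and macrophage markers summed to 1964 and 1823 CPM in KO and to 1368 and 1280 CPM in WT activated B cells, against 357 and 374 CPM in KO and 171 and 185 CPM in WT germinal center B cells. The 8 erythroid markers summed to 62.9 and 76.5 CPM in KO and 7.56 and 9.91 CPM in WT germinal center B cells, and to 1115 and 925 CPM in KO and 639 and 631 CPM in WT activated B cells. The sums of neutrophil, of monocyte and macrophage, and of erythroid markers were thus between 511 and 1368 CPM in WT activated B cells. Slc15a2 had 12 counts there. The part of any marker list in the KO level of Slc15a2 in activated B cells was not tested. In bulk RNA, a change in the share of cells that express a gene and a change in RNA per cell cannot be told apart.

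Slc15a2 (ENSMUSG00000022899.9) lies on chromosome 16, from 36750177 to 36784962 on the minus strand, and its main transcript has 22 exons. Of its exon length, 0% was shared with opposite-strand exons. The 250 bases before its start, chr16:36784963-36785212 on the minus strand, are shown as the promoter window of the member whose level differed most between groups. They are written in the direction of transcription with CpG dinucleotides in capitals (RefSeq, GRCm38.p6).
Slc15a2 promoter: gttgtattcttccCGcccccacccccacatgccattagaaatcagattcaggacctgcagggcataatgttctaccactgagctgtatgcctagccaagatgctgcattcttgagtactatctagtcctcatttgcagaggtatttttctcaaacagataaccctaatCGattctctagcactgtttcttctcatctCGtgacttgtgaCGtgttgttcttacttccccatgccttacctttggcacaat
This stretch held 4 CpG and 45.2% G and C. The median over 32851 promoter windows of the same length was 6 CpG, and 44.4% of them had 4 or fewer. The matching window of Slc15a4 held 17 CpG and 62.8% G and C, and 78.3% of windows had as many or fewer. Searched on both strands, 6 motifs had 0 matches in the windows of both genes: the ISRE-type GAAANNGAA, the ETS-IRF composite GGAANNGAA, which can overlap with it, the AP-1 site TGANTCA, the GAS-type STAT site TTCNNNGAA, the E-box CACGTG of the TFEB and MYC type, and the PU.1-type GAGGAA. These letters occur in 7.13%, 6.99%, 6.75%, 7.02%, 6.02% and 23.3% of all windows, in that order. The absence of a match says only that these letters are not in these windows.

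The genes on either side of Slc15a2 did not share its step between the activated groups. Toward lower coordinates lie Ildr1, which encodes a tight junction protein, and Cd86, the T cell costimulator. Toward higher coordinates lie Eaf2, which encodes an elongation factor partner abundant in germinal center B cells, and Iqcb1, a ciliary gene. In activated B cells the log2 fold changes of KO against WT were 0.22 for Ildr1 (edgeR adjusted p = 0.579), 0.31 for Cd86 (0.0173), -0.32 for Eaf2 (0.471) and 0.01 for Iqcb1 (0.977). The Cd86 call was lost with DESeq2 (adjusted p = 0.489) and without WT replicate 2 (0.258). In germinal center B cells, where Slc15a2 was lower in KO, Ildr1 at -0.79, Eaf2 at -0.62 and Iqcb1 at -0.23 were also lower and Cd86 was higher at 0.20 (edgeR adjusted p of 0.00407 or less). The germinal center markers were lower in the same libraries, and their part in these differences was not tested. Iqcb1 lost its call there with DESeq2 (0.0588) and without KO replicate 1 (0.0914).

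**Figure D3:**
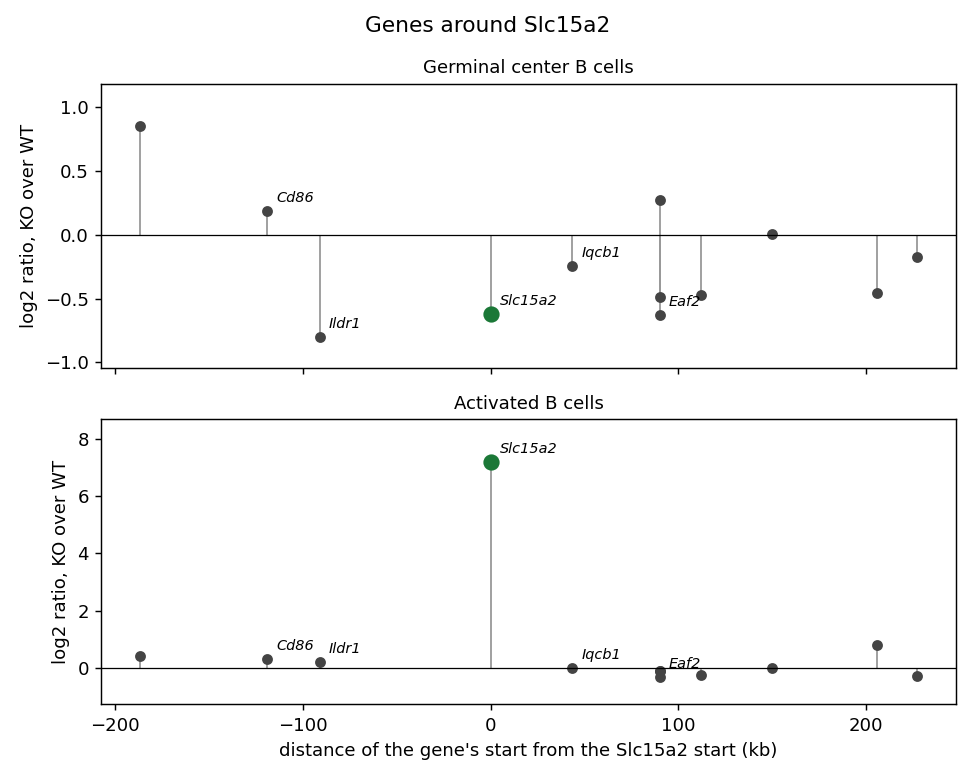
Log2 ratio of KO over WT mean CPM (y axis, with 0.1 CPM added to both) against the distance of each gene's start from the Slc15a2 start (x axis, kb), in germinal center (top) and activated B cells (bottom). Slc15a2 stands at 7.19 in activated B cells, and its neighbours between -0.33 and 0.78.

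Levels of different genes were compared per kb of exon. Slc15a4 was the highest of the 3 in every library, and in 6 libraries Slc15a2 came next and Slc15a3 last. In KO germinal center B cells the means were 26.2 ± 0.395 CPM per kb for Slc15a4, 11.9 ± 0.126 for Slc15a2 and 4.60 ± 0.0195 for Slc15a3. WT germinal center B cells had 23.6 ± 0.742, 18.2 ± 0.132 and 5.35 ± 0.0775 CPM per kb for the same genes. KO activated B cells had 23.7 ± 0.338, 14.0 ± 0.315 and 3.87 ± 0.726 CPM per kb. WT activated B cells had 20.6 ± 0.419 for Slc15a4, 0.0824 ± 0.0218 for Slc15a2 and 3.04 ± 0.117 CPM per kb for Slc15a3, so the order of the last pair was turned round there.

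**Figure D4:**
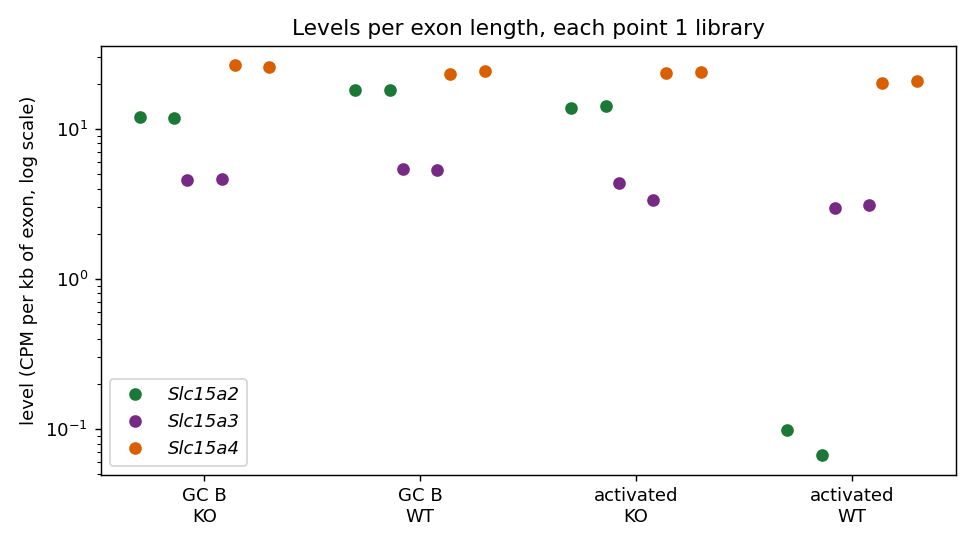
Level in CPM per kb of exon (y axis, log scale) of the 3 genes in the 4 groups, with 1 point per library. Slc15a4 is highest in all 8 libraries, and Slc15a2 drops below Slc15a3 only in the 2 WT activated B cell libraries.

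As a share of the 3 genes' summed level per kb, Slc15a2 made up 27.8% in both KO germinal center libraries, 39.1% and 38.1% in WT germinal center, 33.1% and 34.3% in KO activated, and 0.419% and 0.278% in WT activated B cells. Proportions within the endolysosomal pair stayed closer. Slc15a4 over Slc15a3 per kb was 5.77 and 5.61 in KO germinal center, 4.27 and 4.56 in WT germinal center, 5.36 and 7.14 in KO activated, and 6.86 and 6.68 in WT activated B cells. With the longest annotated transcript as the length in place of all exons, Slc15a2 and Slc15a4 levels were higher by over 1.5 times, and the order of the 3 genes in each group was the same. In KO germinal center B cells Slc15a4 was then 47.3 and Slc15a3 5.19 CPM per kb. The shares and ratios given here thus depend on the length used.

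In WT mice Slc15a3 was higher in germinal center B cells than after activation, and the other 3 comparisons of groups did not pass the test. It had 206 and 213 counts in KO germinal center, or 25.2 and 25.3 CPM, and 283 and 314 counts in WT germinal center B cells, or 29.7 and 29.1 CPM. After activation it had 238 and 185 counts in KO, or 24.1 and 18.4 CPM, and 158 and 174 counts in WT, or 16.2 and 17.2 CPM. The KO and WT libraries did not overlap in either cell type, a separation that 2 libraries per group can show without a difference. The 2 KO activated libraries lay farther apart than those of any other group. From highest to lowest the order was WT germinal center, KO germinal center, KO activated and WT activated B cells.

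By edgeR, Slc15a3 differed between WT germinal center and WT activated B cells by a log2 fold change of 0.78 (SE 0.11, adjusted p = 7.95e-11), a comparison in which 82.2% of tested genes passed. Between KO germinal center and KO activated B cells the change was 0.24 (SE 0.12, adjusted p = 0.0763), where 78.7% of genes passed, and without KO activated replicate 1 it was 0.44 (adjusted p = 0.00327). KO against WT gave -0.20 in germinal center B cells (SE 0.10, adjusted p = 0.0938), where 50.2% of genes passed, and with library totals alone as the scaling this passed (-0.26, adjusted p = 0.0303). KO against WT gave 0.36 in activated B cells (SE 0.13, adjusted p = 0.105), where 6.27% of genes passed. That value passed at 0.54 without KO replicate 2 (adjusted p = 0.00481), at 0.36 with all 8 libraries in 1 fit (0.0458) and at 0.36 with the replicate number as a block (0.0406), and was 0.15 without KO replicate 1.

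The KO values of Slc15a3 had opposite signs in the 2 cell types, and the test of their difference gave -0.57 on the log2 scale, germinal center minus activated B cells (SE 0.16, edgeR adjusted p = 0.0036), where 31.2% of genes passed. The difference missed the threshold with DESeq2 (-0.59, adjusted p = 0.0975) and without KO activated replicate 1 (-0.36, adjusted p = 0.136). Slc15a3 (ENSMUSG00000024737.2, chromosome 19, 10839727 to 10859362, plus strand) has 28.1% of its exon length opposite exons of the other strand. Tmem132a and AC132402.1 are the opposite-strand genes whose spans overlap it, and the part of each was not separated. Since the strand setting of the counting is not given, the Slc15a3 counts are uncertain. Tmem132a, a membrane protein gene, had log2 fold changes of -0.11 (adjusted p = 0.596) with KO in germinal center and 0.35 (0.5) with KO in activated B cells, and was higher in WT germinal center than in WT activated B cells at 1.59 (edgeR adjusted p = 1.05e-13), in the same direction as Slc15a3.

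Slc15a4 varied least between group means of the 3 genes, from 109 to 139 CPM, and its differences between groups were small. It had 1149 and 1156 counts in KO germinal center, or 140 and 138 CPM, and 1169 and 1384 counts in WT germinal center B cells, or 123 and 128 CPM. After activation it had 1234 and 1278 counts in KO, or 125 and 127 CPM, and 1048 and 1125 counts in WT, or 108 and 111 CPM. Every KO library lay above every WT library of its cell type, a separation that 2 libraries per group can show without a difference. KO germinal center B cells were highest and WT activated B cells lowest, while KO activated and WT germinal center B cells, at 126 ± 1.79 and 125 ± 3.94 CPM, overlapped.

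By edgeR, Slc15a4 was higher in KO than in WT by 0.16 on the log2 scale in germinal center (SE 0.05, adjusted p = 0.00365) and by 0.22 in activated B cells (SE 0.06, adjusted p = 0.0255), where 4.85% of genes were called higher. The germinal center against activated contrast gave 0.17 in WT (SE 0.06, adjusted p = 0.00365) and 0.13 in KO (SE 0.05, adjusted p = 0.0276), where 39.2% of genes were called higher and 39.5% lower. The difference of the KO effects was -0.06 (SE 0.08, adjusted p = 0.614). With library totals alone the germinal center KO call was lost (0.11, adjusted p = 0.0575). None of the 4 calls held with DESeq2, at adjusted p of 0.0723 and 0.393 for KO in germinal center and activated B cells and 0.109 and 0.270 for germinal center against activated B cells in WT and KO. The activated B cell call was also lost without any 1 of its 4 libraries (adjusted p 0.0504 to 0.125), and with library totals alone the germinal center against activated comparison gave 0.05 in WT and turned to -0.05 in KO. Of the Slc15a4 exon length, 8.04% lies opposite exons of the other strand (ENSMUSG00000029416.17, chromosome 5, 127595664 to 127632897, minus strand). Glt1d1 and Gm43474 are the opposite-strand genes whose spans overlap it, and the part of each was not separated.

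**Figure D5:**
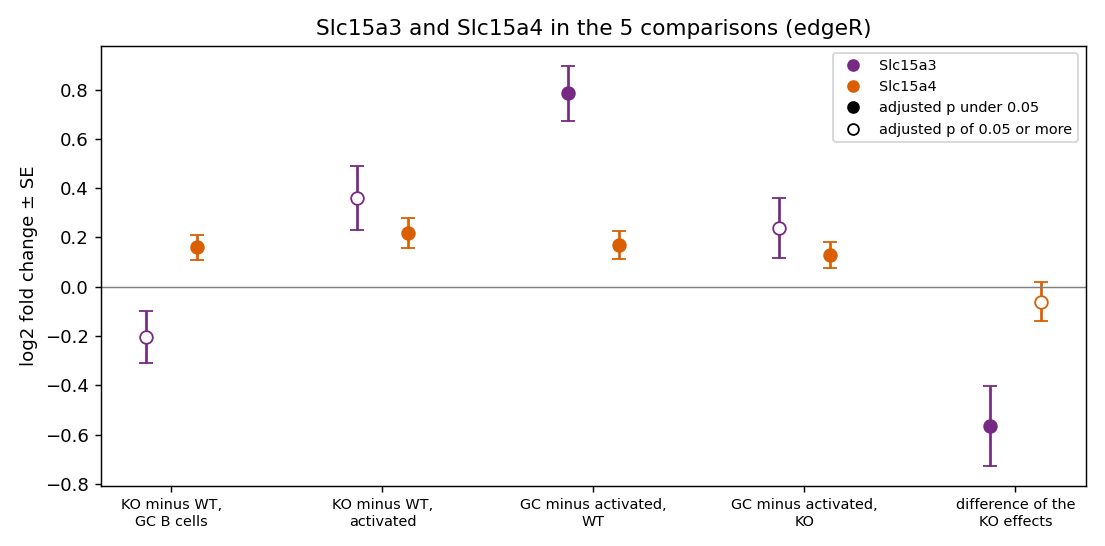
Log2 fold change with its SE (y axis) of Slc15a3 and Slc15a4 in the 4 comparisons of groups and for the difference of the KO effects, from edgeR (GC, germinal center). Filled points passed at an adjusted p under 0.05: Slc15a3 at 0.78 in WT and at -0.57 for the difference, and Slc15a4 in all 4 comparisons of groups, between 0.13 and 0.22.

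Of the partners through which SLC15A4 is known to act, Irf5, the transcription factor that TASL recruits, had 247 and 245 CPM in KO and 253 and 250 CPM in WT germinal center B cells, and 238 and 230 CPM in KO and 233 and 240 CPM in WT activated B cells. No comparison of Irf5 passed: KO against WT gave -0.02 in germinal center (edgeR adjusted p = 0.748) and 0.00 in activated B cells (0.994). Tlr7, the single-stranded RNA sensor, had 49.3 and 51.5 CPM in KO and 4.41 and 5.47 CPM in WT germinal center B cells, and 57.3 and 57.0 CPM in KO and 39.0 and 43.0 CPM in WT activated B cells. It rose with KO by 3.35 (edgeR adjusted p = 4.82e-138) in germinal center and by 0.49 (0.000105) in activated B cells. These effects differed by 2.86 (edgeR adjusted p = 6.66e-30). Over all tested genes 50.2% passed for KO in germinal center B cells, 6.27% in activated B cells and 31.2% for the difference. Germinal center markers were lower and monocyte and macrophage markers higher with KO in the same germinal center libraries. Their part in these values was not tested. Tlr9, the DNA sensor, rose with KO by 0.38 (1.21e-06) in germinal center B cells and had 0.06 (0.726) in activated B cells. Unc93b1, which escorts these receptors to endosomes, rose by 0.55 (2.13e-60) in germinal center B cells and had 0.07 (0.554) in activated B cells. The Tlr9 effects differed by 0.32 (adjusted p = 0.00645), which missed the threshold with DESeq2 (0.187) and without WT germinal center replicate 2 (0.142), and those of Unc93b1 by 0.49 (1.26e-09).

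The NOD genes below were tested in the same fits, where 50.2% of all genes passed for KO in germinal center B cells. Nod1, a sensor of muropeptides, averaged 20.3 CPM in KO and 6.92 CPM in WT germinal center B cells. Its log2 fold change there was 1.57 (edgeR adjusted p = 2.17e-22). It had -0.14 (0.372) in activated B cells, and the effects differed by 1.71 (3.75e-15). Nod2, the other muropeptide sensor, averaged 17.4 CPM in KO and 13.9 CPM in WT germinal center B cells, a change of 0.34 (0.0306) that was lost with DESeq2 (0.216) and without KO replicate 1 (0.117), KO replicate 2 (0.0653) or WT replicate 2 (0.291). With activation Nod2 had a KO effect of 0.55 (0.286). Nod2 was higher in WT germinal center than in WT activated B cells by 2.24 (3.48e-21), as Slc15a3 was, whereas Nod1 was lower by 2.78 (1.39e-55). Ripk2, the kinase both sensors signal through, rose with KO by 0.32 in germinal center B cells (0.00961), lost with DESeq2 (0.137) and without KO replicate 1 (0.382) or WT replicate 1 (0.131), and had -0.16 (0.355) in activated B cells.

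Gene lists around the 3 carriers were counted beside all tested genes, of which 25.1% were called higher and 25.1% lower with KO in germinal center B cells, and 4.85% higher and 1.42% lower in activated B cells. Medians over all tested genes were -0.0044 and 0.0006 on the log2 scale in those comparisons. Cell markers moved with KO in the same germinal center libraries: 8 of 8 tested germinal center markers were lower (median -0.80), and 10 of 12 monocyte and macrophage markers (median 2.85), 4 of 5 plasma cell markers (1.36) and 6 of 6 erythroid markers (4.04) were higher. Their part in the list counts was not tested. In germinal center B cells, 13 of 19 tested genes of the endosomal Toll-like receptor list were higher with KO and 1 lower, with a median of 0.39; Hsp90b1, a chaperone of these receptors, rose by 0.88, and Tab2, a TAK1 adaptor, fell by 0.27. Of 13 genes of NOD signaling, 7 were higher and 3 lower with a median of 0.14, and Birc3, a ubiquitin ligase of the pathway, rose by 0.70. Of 17 lysosomal solute transporters and membrane proteins, 9 were higher and 2 lower with a median of 0.33. Among these the nucleoside carrier Slc29a3 rose by 1.45, the cholesterol carrier Npc2 rose by 1.06 and the amino acid carrier Slc36a4 fell by 0.57.

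Apart from the interferon response, the remaining germinal center counts were closer to even. Of 17 AP-3 and BLOC subunits, which sort proteins to lysosomes, 5 were higher and 3 lower with a median of 0.12, Ap3d1 at 0.44 and Dtnbp1 at -0.44. Of 16 subunits of the proton-pumping V-ATPase, 4 were higher and 4 lower with a median of -0.10, Atp6v0a1 at 0.44 and Atp6v1h at -0.32. Of 18 Ragulator, Rag and mTORC1 genes, 3 were higher and 5 lower with a median of -0.04, Flcn at 0.40 and Lamtor1 at -0.39. Of 13 plasma membrane amino acid transporters, 5 were higher and 4 lower with a median of 0.07, Slc43a1 at 0.94 and Slc7a1 at -0.24. Of 14 peptidases and histidine enzymes, 4 were higher and 4 lower with a median of -0.03. Here Dpp4 rose by 2.23, Ctsc rose by 0.89 and Npepps fell by 0.51. All 27 tested interferon response genes were higher with a median of 1.97, the RNA sensor gene Ddx58 at 2.65. Every gene named in these counts passed by edgeR at an adjusted p of 0.000129 or less.

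In activated B cells 4.85% of all tested genes were called higher with KO and 1.42% lower. Outside the interferon response few genes of these lists passed, as was so over all tested genes. Of 21 genes of the Toll-like receptor list 2 were higher with KO, Tlr7 and the interferon regulator Irf7 at 0.66 (edgeR adjusted p = 1.8e-05), with a median of 0.05. By edgeR 0 of 14 NOD signaling genes and 0 of 16 V-ATPase subunits passed, with medians of -0.04 and 0.07. In each of these lists 2 genes had an unadjusted p under 0.05, and DESeq2 called 0. Of 17 lysosomal transporters 2 were higher, among them Slc29a3 at 0.37 (0.0012; 0.0609 with DESeq2). Of 16 plasma membrane transporters 1 was higher, Slc43a1 at 0.58 (0.00347), lost with DESeq2 (0.215) and without KO replicate 2 (0.0563). Of 16 peptidases and histidine enzymes 2 were higher, among them Hdc, which makes histamine from histidine, at 8.04 CPM in KO and 2.91 CPM in WT (1.47, adjusted p = 0.000126). The neutrophil marker sum given above moved the same way, and its part in the Hdc difference was not tested. Of 17 AP-3 and BLOC subunits 1 was higher, and of 19 Ragulator, Rag and mTORC1 genes 1 was higher and 1 lower. Ap3s1, Lamtor5, Flcn, Npc2 and Ctsc, the list members called in activated B cells that are not yet named with values there, lost the call with DESeq2 (adjusted p 0.224 to 0.723) and without KO replicate 1 (0.085 to 0.418). Of 28 interferon response genes 13 were higher with a median of 0.43, Oasl2 at 1.05 (1.29e-07). Irf7 stands in both this list and the Toll-like receptor list.

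Between WT germinal center and WT activated B cells, 40.3% of tested genes were called higher and 41.8% lower in germinal center cells, and the median was -0.03. Slc15a3 and Slc15a4 were higher there by edgeR, while 13 of 17 lysosomal transporters were lower and 2 higher, with a median of -1.15. The Slc15a4 call was lost with DESeq2 (adjusted p = 0.109) and, by edgeR, with library totals alone (0.047, adjusted p = 0.429). Npc2 was lower by 1.96 and Slc36a4 higher by 1.86 on the log2 scale. Of 16 V-ATPase subunits, 4 were higher and 10 lower with a median of -0.30. Of 16 peptidases, 8 were higher and 8 lower, with Lap3, a leucine aminopeptidase, higher by 1.73 and Dpp4, a dipeptidyl peptidase, lower by 4.30. Of 16 plasma membrane amino acid transporters, 6 were higher and 9 lower, and Slc7a5, the large neutral amino acid carrier, was higher by 1.62. Each gene named here other than the 2 carriers passed by edgeR at an adjusted p of 1.57e-28 or less.

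Genes with the most similar pattern were ranked by Pearson r of log2 CPM over the 8 libraries among 11724 genes, as a description, since the libraries fall into 4 groups and share these groups' differences. For Slc15a2 they were Tagln2 (r = 0.936), Cd180 (0.935), Clec12a (0.935), Impa2 (0.930) and Wdfy1 (0.927). These were all lowest in WT activated B cells, which a ranking against Slc15a2 favours, but with a far smaller step. Clec12a averaged 44.6, 55.5, 37.6 and 20.1 CPM in KO germinal center, WT germinal center, KO activated and WT activated B cells. For Slc15a3 they were Nars (0.989), Nifk (0.983), Hfm1 (0.982), Jdp2 (0.972) and Bcl2l1 (0.970). For Slc15a4 they were Gcnt1 (0.977), Dnajc3 (0.977), Slc37a1 (0.964), Lat (0.961) and H2-DMb2 (0.949). Among the 3 carriers r was 0.80 for Slc15a2 and Slc15a3, 0.83 for Slc15a2 and Slc15a4 and 0.67 for Slc15a3 and Slc15a4 over the same 8 libraries.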

How the data were processed

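The authors deposited whole-number read counts per gene for each of 8 libraries, unnormalized, in 1 table per library. Trimmomatic, DESeq2 and the build mm10 are named per the submitters' processing notes. Neither the labels nor the headers name an aligner, a counter or a strand setting. Each table lists 55401 genes and 5 summary entries, which were left out of all sums and fits. Reads assigned to no feature were 47.2% to 53.9%. Columns of per-sample values left unused numbered 0. Totals on genes were 8777425 to 11414559, so 1 CPM rests on about 10 counts and counting error sets most of the spread of a gene at that level.

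The members and gene lists were chosen with earlier results of these data known. Groups came from the sample titles. Comparisons used edgeR 4.0.16 in R 4.3.3 (filterByExpr, TMM, quasi-likelihood F test, Benjamini-Hochberg adjustment over all tested genes, threshold 0.05) on the libraries compared, and the difference of the KO effects used all 8 libraries in 1 fit of the group means. The fits were tested on simulated data. Alternatives were RLE scaling, library totals alone, DESeq2 1.42.0, no filter, all 8 libraries in 1 fit, a replicate block, each library left out, and the longest transcript as gene length. Levels are TMM-scaled CPM over all 8 libraries. Coordinates, exon lengths and coding sequences are from GENCODE M21 (GRCm38), and promoters from a RefSeq table that holds Slc15a2 and Slc15a4. Of 265 list symbols, 263 matched; Tasl and Fdcsp were not matched to an identifier. Replicates of a group differed by more than sampling noise (chi-square per degree of freedom 1.39 to 2.40), so all 8 libraries were counted separately. Named genes were the members, fixed partners (Irf5, Tlr7, Tlr9, Unc93b1, Nod1, Nod2, Ripk2), the nearest coding neighbours, a part of the 2 called members per list and direction that had the smallest p, the 5 genes most like each member in pattern, and Jmjd1c.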

Additional observations from a re-analysis of the deposited data

Results flagged for a closer look

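The KO effects on Slc15a2 ran in opposite directions in the 2 cell types. The log2 ratio of mean CPM, KO over WT, was -0.62 in germinal center B cells and 7.41 in activated B cells. The difference between these ratios was not tested, since these values chose the gene. The difference of the KO effects, germinal center minus activated B cells, was tested by edgeR for the other members and fixed partners. It did not pass for Slc15a4 (adjusted p = 0.614), Irf5 (0.872) or Nod2 (0.648). Among all tested genes 31.2% passed. At an adjusted p under 0.05 it was -0.57 for Slc15a3, 2.86 for Tlr7, 0.32 for Tlr9, 0.49 for Unc93b1, 1.71 for Nod1 and 0.48 for Ripk2 (0.00685). With DESeq2 the calls of Slc15a3 (0.0975), Tlr9 (0.187) and Ripk2 (0.181) were lost. The difference was -0.36 for Slc15a3 without KO activated replicate 1. It was 0.22 for Tlr9 without WT germinal center replicate 2 and 0.31 for Ripk2 without KO germinal center replicate 1. With 2 libraries per group no search for a stray library was made.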

How the results depend on the processing

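The limits here are those of 2 libraries per group, an unstated strand setting and 12 counts of Slc15a2 in WT activated B cells, where depth bounds the ratios. Slc15a2 levels in KO germinal center, WT germinal center and KO activated B cells were 85.6, 133 and 104 CPM with RLE scaling and 81.2, 128 and 110 CPM with library totals alone, and with 1 library left out they were 86.6 to 87.9, 133 to 135 and 102 to 105 CPM. In WT activated B cells they stayed between 0.493 and 0.720 CPM. Per kb of the longest transcript, the KO germinal center, WT germinal center, KO activated and WT activated levels were 21.8, 33.5, 25.9 and 0.152 for Slc15a2, 5.19, 6.04, 4.37 and 3.43 for Slc15a3 and 47.3, 42.7, 42.9 and 37.2 for Slc15a4. 

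Genes called in activated B cells numbered 885 in the fit as reported, 310 with DESeq2, 465 with no filter and 1388 with the replicate block, and 4685 against 2637 with DESeq2 for the difference of the KO effects; the cause was not tested. Library totals alone moved the median of all genes by -0.12 in WT and -0.18 in KO for germinal center against activated B cells. Slc15a4 lost 3 calls with that scaling, at 0.11 (adjusted p = 0.0575) for KO in germinal center B cells and at 0.047 (0.429) and -0.049 (0.403) for germinal center against activated B cells in WT and KO, and Slc15a3 was -0.26 for KO in germinal center B cells. With DESeq2, Slc15a4 was 0.15 and 0.21 for KO in germinal center and activated B cells and 0.17 and 0.12 for germinal center against activated B cells in WT and KO, and Slc15a3 was -0.59 for the difference. With no filter, Slc15a4 missed the threshold at 0.22 for KO in activated B cells (adjusted p = 0.104) and at 0.13 for the KO cell type comparison (0.0517). Slc15a3 for KO in activated B cells was 0.36 with all 8 libraries and 0.36 with the replicate block. With 1 library left out, Slc15a3 ran from 0.15 to 0.54 for KO in activated B cells, 0.044 to 0.44 for the KO cell type comparison and -0.75 to -0.36 for the difference. Slc15a4 ran from 0.20 to 0.24 for KO in activated B cells and 0.11 to 0.16 for the KO cell type comparison, which passed with KO activated replicate 2 left out and not with any other of its 4 libraries left out.

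No pairing by replicate number was seen, though it is not excluded: deviations of same-numbered libraries correlated at -0.0349 to 0.00993 across groups. Apart from Slc15a3 for KO in activated B cells, the replicate block changed no call of Slc15a3 or Slc15a4. Signs turned for values near 0. For Irf5 with KO in activated B cells they were -0.0025 with RLE, -0.013 with library totals, -0.0036 with DESeq2 and -0.0017 with all 8 libraries, and -0.061 for the WT cell type comparison with library totals. Iqcb1 was -0.0049 with library totals. With 1 library left out, Irf5 ran from -0.027 to 0.026 in activated and -0.044 to 0.0015 in germinal center B cells and -0.045 to 0.019 for the difference, Iqcb1 from -0.12 to 0.14 and Tlr9 from -0.0036 to 0.11 in activated B cells, Nod2 from -0.43 to 0.0079 for the difference, and Tmem132a from -0.28 to 0.046 in germinal center B cells. Of 106 recomputed Slc15a3 and Slc15a4 values, 83 kept direction and call, 17 lost and 5 gained the call and 1 reversed.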
